A study of Rattus norvegicus with 8 samples.

Results

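Ubiquitin is joined to proteins by ubiquitin ligases and removed by deubiquitinases, and 7 genes of this system were followed here in neurons of the rat hippocampus after traumatic brain injury. They were the deubiquitinases Uchl1, Usp9x, Usp47 and Bap1, the ubiquitin-binding deacetylase Hdac6 and the ubiquitin ligases Siah2 and Herc3. The genes were selected on a difference between surviving and dying neurons that the study lists for these same arrays, so their values in that comparison, and in the comparisons of either group with sham, are a description without a test. The 7 were among 12487 genes that carry a name on the array, and 13 probes bear their names.

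RNA of pyramidal neurons taken by laser capture from the CA3 field was measured on 8 single-colour Agilent arrays, 2 for each of 4 groups. All rats were Sprague-Dawley, and the methods give males; the age is not stated. Brains of rats with moderate fluid percussion injury and of sham-injured rats were removed after 24 h, and naïve rats had no treatment. In sections of injured brains, neurons stained by Fluoro-Jade, a dye for degenerating neurons, made up the dying pools, and unstained neurons next to them made up the surviving pools, with about 600 neurons in a pool. Each of these pools joined several rats, so that 1 array is not 1 animal, and the fate of an unstained neuron after capture is unknown.

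The signal of a probe is given as the log2 of its processed intensity over the median of all probes on the same array, so that 0 is the array median. Signal well above background was found for 23151 and 22397 probes on the naïve arrays, 20923 and 20198 on the sham arrays, 29391 and 27111 on the surviving arrays and 24167 and 28094 on the dying arrays. The median intensity before scaling was 28.8 and 22.7 in naïve rats, 16.5 and 16.4 in sham, 52.4 and 48.3 in surviving neurons and 19.4 and 53.0 in dying samples, replicate 1 first. Dying replicate 1 thus stood apart from the other 3 arrays of injured rats, and differences that rest on it are given below with and without it. The 4 arrays of naïve and sham rats lay on 1 slide and the 4 arrays of injured rats on another, and the slides were read with different versions of the extraction protocol, so that slide and injury cannot be told apart where injured rats are compared with sham rats. The labels name 2 amplification kits without saying which pool had which. The number of arrays, 2 per group, limits the precision.

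The ubiquitin system marks proteins for the proteasome, for sorting or for altered activity, in a cascade of activating, conjugating and ligating enzymes that deubiquitinases oppose. Ligases of the HECT class take over ubiquitin on a cysteine before they pass it on, while those of the RING class bring the conjugating enzyme and the substrate together. Neurons are long-lived and extended cells that depend on this turnover at synapses and in axons, and the deubiquitinase Uchl1 is among their most abundant proteins.

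Promoter sequences were found for 6 of the 7 genes in the RefSeq table of build GRCr8, and Usp9x was not found. Each spans 300 bases around the start of the gene. Those of Siah2 and Herc3 are shown because these were the 2 genes whose signals ran most alike over the arrays, and that of Uchl1 because it had the largest difference between surviving and dying samples by the listed probes once dying replicate 1 was left out (1.56). The windows are chr14:41849368-41849667 on the minus strand for Uchl1, chr2:145081626-145081925 on the minus strand for Siah2 and chr4:89282195-89282494 on the plus strand for Herc3. Capitals mark the GC box GGGCGG and the core TGACG of the cAMP response element, each on either strand.
Uchl1: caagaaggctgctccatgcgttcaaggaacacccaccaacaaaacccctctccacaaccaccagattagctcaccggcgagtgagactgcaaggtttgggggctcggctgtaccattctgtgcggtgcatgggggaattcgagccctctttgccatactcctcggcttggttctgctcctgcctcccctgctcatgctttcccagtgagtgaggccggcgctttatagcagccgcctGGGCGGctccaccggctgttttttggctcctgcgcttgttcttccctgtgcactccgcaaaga
Siah2: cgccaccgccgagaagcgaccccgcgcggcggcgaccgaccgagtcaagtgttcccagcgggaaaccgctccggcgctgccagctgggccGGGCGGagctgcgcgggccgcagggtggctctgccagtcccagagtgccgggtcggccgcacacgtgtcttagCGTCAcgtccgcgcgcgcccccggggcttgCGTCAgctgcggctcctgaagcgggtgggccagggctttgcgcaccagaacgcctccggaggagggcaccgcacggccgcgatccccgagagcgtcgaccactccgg
Herc3: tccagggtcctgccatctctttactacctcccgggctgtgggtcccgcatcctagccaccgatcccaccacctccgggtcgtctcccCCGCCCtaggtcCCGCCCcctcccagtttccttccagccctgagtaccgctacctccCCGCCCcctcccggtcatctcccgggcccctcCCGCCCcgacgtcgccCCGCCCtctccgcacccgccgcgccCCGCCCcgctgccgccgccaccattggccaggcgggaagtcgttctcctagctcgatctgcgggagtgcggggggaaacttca

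A GC box was present in 5 of the 6 promoters, all but that of Usp47, and in 33.1% of the 33469 promoters of the table. The Herc3 window held 6 of them, the Hdac6 window 4, the Bap1 window 3, and the windows of Uchl1 and Siah2 held 1 each. The core TGACG was found in 2 promoters, 2 times in Siah2 and 1 time in Usp47, against 21.2% of all promoters. Of the other motifs searched on both strands, TATAAA was present in Uchl1 alone (14.2% of all promoters), CACGTG in Siah2 alone (6.42%), GCGCATGC in Bap1 alone (2.47%) and CCAAT in Hdac6 and Herc3 (37.5%). These matches describe the letters of the windows and are not shown to be bound sites.

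Among the deubiquitinases, signal was highest in sham or naïve samples and lowest in dying samples by the listed probe of each gene. Uchl1 (NM_017237), the neuronal ubiquitin hydrolase, had log2 signals of 10.22 and 10.79 in naïve rats, 11.12 and 10.60 in sham, 9.74 and 9.40 in surviving neurons and 7.02 and 8.01 in dying samples. Both dying arrays lay below both surviving arrays, and both surviving arrays lay below all 4 uninjured arrays, while sham and naïve overlapped. The surviving samples exceeded the dying samples by 2.06 (SE 0.53, n = 2 and 2 arrays), which is 4.16-fold. Without dying replicate 1 the difference was 1.56 and without dying replicate 2 it was 2.55. It was 3.47 and 2.36 with the normexp corrections over all spots and without spots of flagged background. On the rank scale, the probe stood at percentile 99.0 and 98.8 of all probes in surviving samples and at 95.2 and 97.5 in dying samples. In pooled cells, fewer cells of a type and less RNA per cell cannot be told apart.

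Bap1 (XM_224614), a nuclear deubiquitinase of the same hydrolase family as Uchl1, had signals of 2.81 and 3.32 in naïve rats, 3.27 and 2.89 in sham, 2.71 and 2.54 in surviving neurons and -2.54 and 1.23 in dying samples. The surviving arrays lay close to each other and above both dying arrays, whose replicates were far apart. Of the dying arrays only replicate 2 had the probe well above background, as did the other 6 arrays of the series. The difference between surviving and dying samples was 3.28 (SE 1.04), and it was 1.40 without dying replicate 1, 5.17 without dying replicate 2, and 1.32 and 1.48 with the normexp corrections over all spots and without spots of flagged background.

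Usp47 (XM_218997), a ubiquitin-specific protease, was represented by 2 probes of the same listed transcript, of which the one with the higher mean over the 8 arrays is taken as the listed probe in counts and ranges. It read 5.50 and 6.40 in naïve rats, 6.53 and 6.32 in sham, 5.31 and 5.21 in surviving neurons and 3.81 and 4.80 in dying samples. The second probe read 3.85 and 4.27 in naïve rats, 4.87 and 4.54 in sham, 1.25 and 2.79 in surviving neurons and -1.26 and 0.47 in dying samples. By either probe, the surviving arrays lay above the dying arrays and below the sham arrays without overlap. Surviving minus dying samples gave 0.96 (SE 0.54) by the first probe and 2.42 (SE 0.72) by the second, whose size is uncertain, as dying replicate 1 was not well above background. These are 1.94-fold and 5.34-fold. The study does not name the probe, and the ratio it lists for this transcript is nearer to that of the second. For Usp47 the first probe is thus called listed by choice. Without dying replicate 1 these differences were 0.46 and 1.55, and without dying replicate 2 they were 1.45 and 3.28. They were 1.94 and 1.04 with the normexp correction over all spots, and 1.12 and 1.14 with that without spots of flagged background.

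Usp9x, a large ubiquitin-specific protease encoded on the X chromosome, was covered by 5 probes under 2 transcript accessions. The probe of the listed accession XM_343766 read 2.28 and 2.99 in naïve rats, 3.62 and 3.11 in sham, 2.25 and 1.03 in surviving neurons and -2.36 and 1.23 in dying samples. Dying replicate 2 lay between the 2 surviving arrays, so the groups overlapped, and the low mean of the dying samples rested on replicate 1, where the probe was not well above background. The difference between surviving and dying samples was 2.20 (SE 1.05), and it was 0.40 without dying replicate 1 and 3.99 without dying replicate 2. A second probe of that accession was well above background on 1 of the 8 arrays, surviving replicate 1.

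The other 3 Usp9x probes, of accession XM_001056701, had signal well above background on each of the 8 arrays. The first of them read 7.72 and 8.09 in naïve rats, 8.78 and 8.62 in sham, 7.19 and 7.07 in surviving neurons and 7.14 and 6.27 in dying samples. Here dying replicate 1 was level with the surviving arrays, unlike at the listed probe. The differences between surviving and dying samples by these 3 probes were 0.43 (SE 0.49), 0.46 (SE 0.50) and 0.34 (SE 0.45), and only the last had groups without overlap. Without dying replicate 1 they were 0.87, 0.82 and 0.45. Without dying replicate 2 they were -0.0072, 0.10 and 0.24, so that the sign of the first rested on that array. Under the array median with no array left out, the Usp9x difference between surviving and dying samples thus depended on the probe. With quantile normalization these 3 probes gave 0.12, 0.15 and 0.05, against 2.32 for the listed probe. With normexp without spots of flagged background they gave 0.84, 0.72 and 0.71, near the 0.82 of the listed probe.

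**Figure D1:**
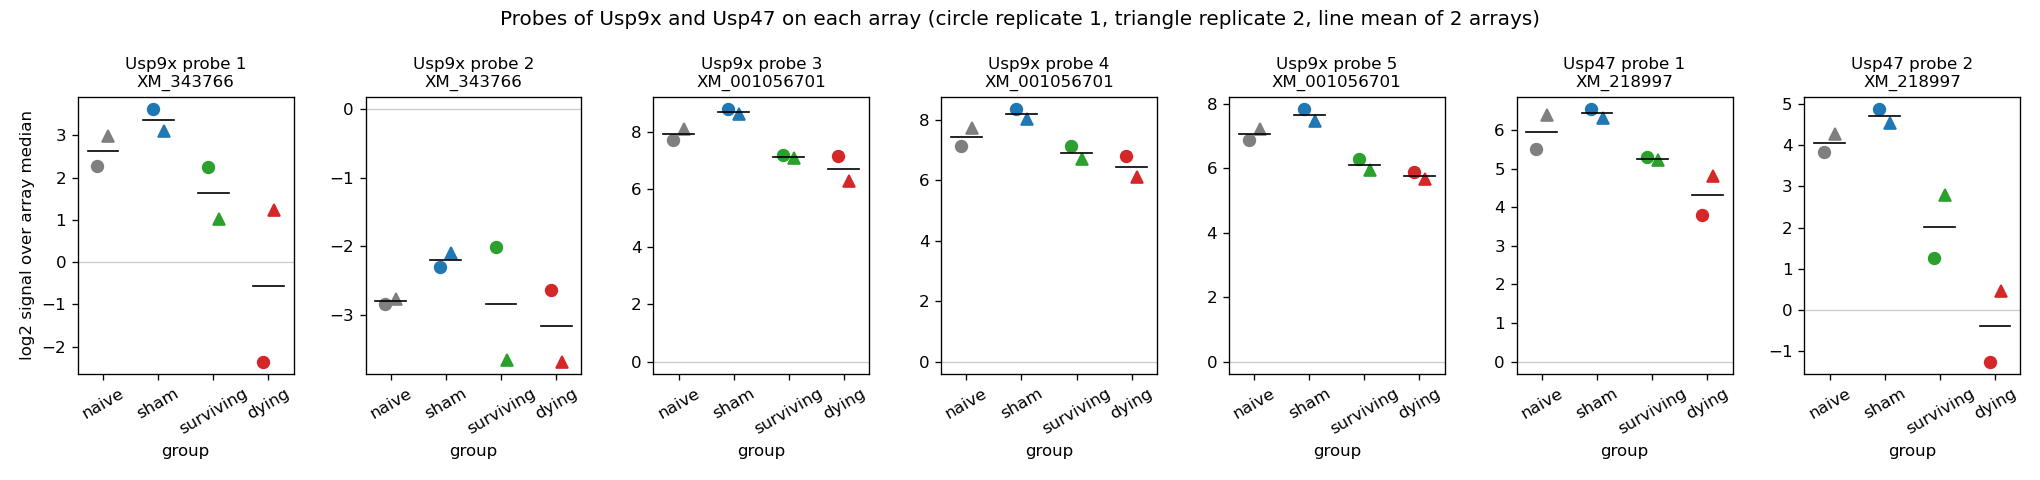
Log2 signal over the array median (vertical axis, separate scale in each panel) of the 5 Usp9x probes and the 2 Usp47 probes in each group, with a circle for replicate 1, a triangle for replicate 2 and a line for the mean of 2 arrays. The listed Usp9x probe reads -2.36 on dying replicate 1, while the 3 probes of the other accession read between 5.67 and 7.14 on the dying arrays.

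Hdac6 (XM_228753), a cytoplasmic deacetylase of tubulin that also binds ubiquitin and carries ubiquitinated proteins to aggresomes, read 3.1 and 3.59 in naïve rats, 3.90 and 3.30 in sham, 2.89 and 1.37 in surviving neurons and -1.83 and 1.84 in dying samples. Dying replicate 2 again lay between the surviving arrays. Dying replicate 1 was far below all other arrays and not well above background, so that the size of the difference is uncertain. The difference between surviving and dying samples was 2.12 (SE 1.08), and it was 0.29 without dying replicate 1, 3.96 without dying replicate 2 and 1.36 without surviving replicate 1. With the normexp corrections over all spots and without spots of flagged background it was 0.86 and 0.96, and that of the listed Usp9x probe was 0.67 and 0.82. For Hdac6 and for the listed probe of Usp9x, surviving and dying arrays thus overlapped under the array median and under each of the 6 other scalings and background corrections tried.

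Siah2 (NM_134457), a RING ligase that is known for its part in the response to low oxygen, read 1.44 and 2.24 in naïve rats, 3.01 and 2.74 in sham, 1.62 and 0.94 in surviving neurons and -2.50 and -0.17 in dying samples. The surviving arrays lay above the dying arrays and below the sham arrays, and they overlapped with the naïve arrays. The difference between surviving and dying samples was 2.61 (SE 0.76). It was 1.45 without dying replicate 1 and 0.77 and 0.89 with the normexp corrections over all spots and without spots of flagged background. Of the dying arrays only replicate 2 had the probe well above background.

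Herc3 (XM_342701), a HECT-domain ligase of the family with repeats like those of RCC1, read 3.94 and 4.57 in naïve rats, 5.13 and 4.97 in sham, 4.26 and 3.30 in surviving neurons and 0.31 and 2.29 in dying samples. The order of the groups was that of Siah2, with dying samples lowest, sham samples highest and surviving samples overlapping with naïve. The difference between surviving and dying samples was 2.48 (SE 0.71), which is 5.58-fold, and it was 1.49 without dying replicate 1. A second Herc3 probe was not well above background on any of the 8 arrays and is not read further. The promoters of Siah2 and Herc3 printed above both hold the GC box, and of the 2 only that of Siah2 holds TGACG.

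**Figure D2:**
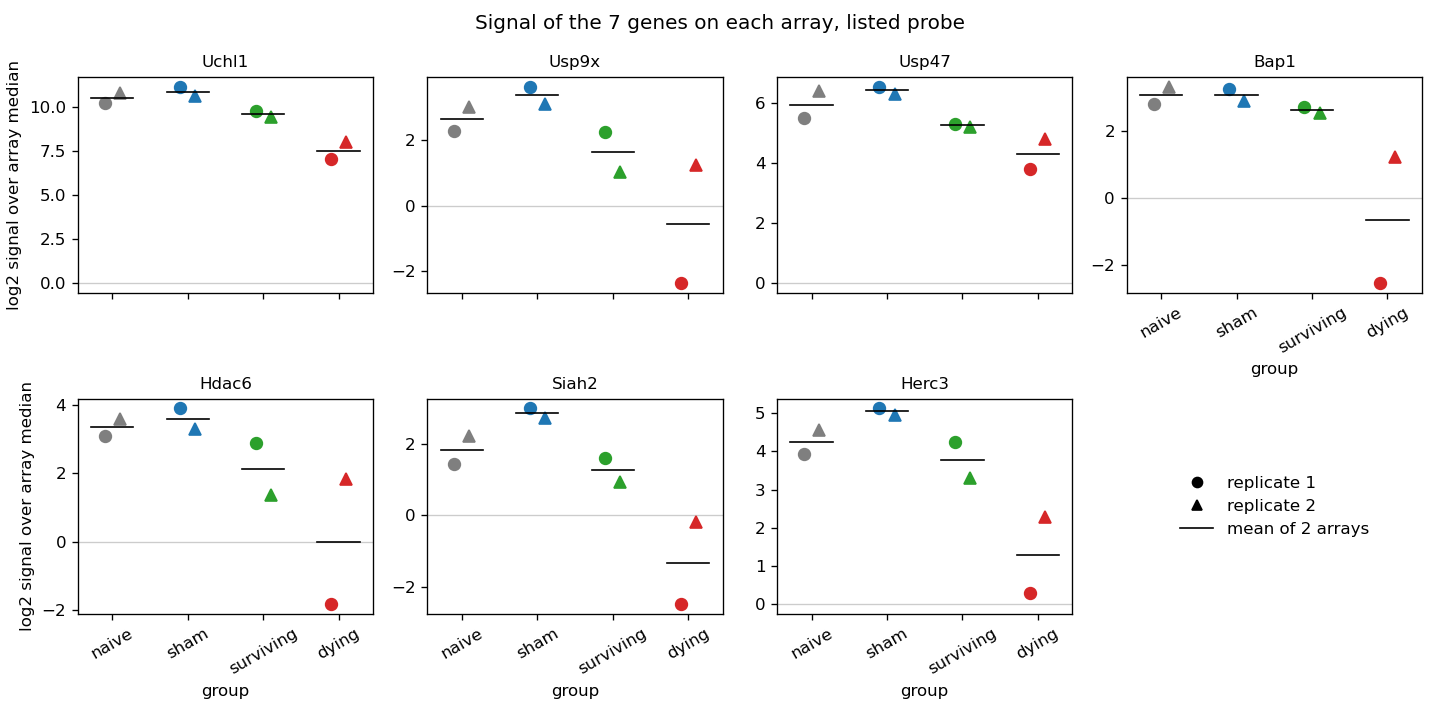
Log2 signal over the array median (vertical axis) of the listed probe of each gene in naïve, sham, surviving and dying samples, with a circle for replicate 1, a triangle for replicate 2 and a line for the mean of 2 arrays. Dying replicate 1 is the lowest array in all 7 panels, at 7.02 for Uchl1 and -2.54 for Bap1.

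Over the 7 listed probes, surviving samples had the higher mean for 7 of 7 genes, and the arrays of the 2 groups did not overlap for 5, which are Uchl1, Usp47, Bap1, Siah2 and Herc3. Among 21262 probes well above background on all 4 arrays, 27.9% were higher in surviving samples without overlap and 23.0% were lower. Nothing is read from the count of members, since they were chosen by this difference. Of the 7 listed probes, 3 had signal well above background on each of the 4 arrays, namely those of Uchl1, Usp47 and Herc3. The second Usp47 probe did not. Across all 27404 probes tested with limma, 0 passed an adjusted p of 0.05 (0% higher and 0% lower), while 5768 stood under 0.05 before adjustment (unadjusted p). When dying replicate 2 was left out 5620 passed, in a fit that gives the lone dying array the spread of the other groups.

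**Figure D3:**
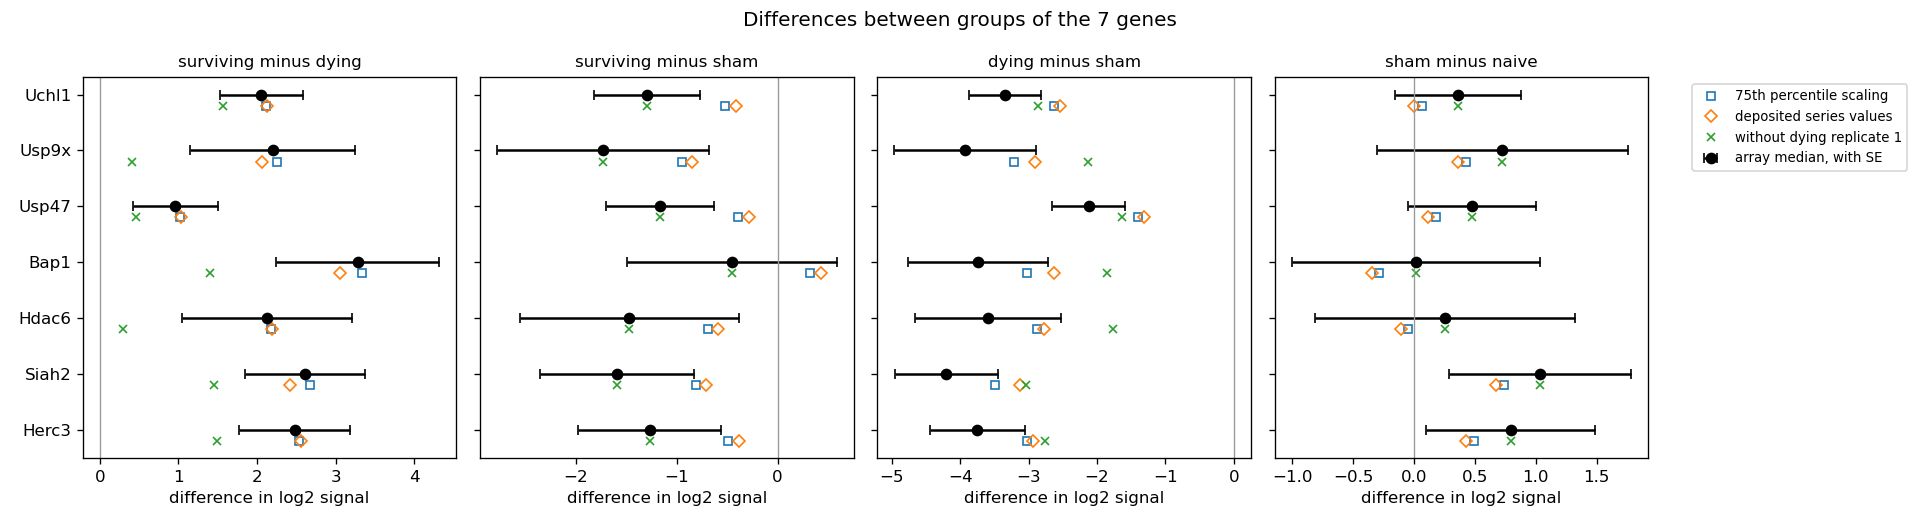
Difference in log2 signal (horizontal axis) of the 7 genes by the listed probe in 4 comparisons, with black points and bars for the estimate and its SE under the array median. Squares give scaling to the 75th percentile, diamonds the deposited series values and crosses the fit without dying replicate 1, where the Hdac6 difference between surviving and dying samples is 0.29 and that of Uchl1 is 1.56.

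The comparison of surviving neurons with sham neurons asks what set unstained neurons of an injured brain apart from those of an uninjured one. By the array median, all 7 listed probes were lower in surviving samples, with differences from -0.45 (SE 1.04) for Bap1 to -1.73 (SE 1.05) for Usp9x, while the second Usp47 probe gave -2.68 (SE 0.72). Uchl1 gave -1.29 (SE 0.53), Siah2 -1.59 (SE 0.76) and Herc3 -1.27 (SE 0.71). The arrays did not overlap for 7 of 7 genes, and this was so in the same direction for 65.6% of 18173 probes with signal well above background on the 4 arrays, with 11.7% the other way. Under the median of probes above background 29.7% were lower and 41.2% higher.

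These differences moved with the scaling, as did the median difference of all tested probes, from -0.43 under the array median to 0.35 under the 75th percentile. With quantile normalization it was 0.18, with either normexp correction 0.09, with the deposited series values 0.45 and with the median of probes above background 0.54. Bap1 changed sign under all 6 other scalings and background corrections, with 0.32 under the 75th percentile. The other 6 genes stayed negative, with Uchl1 at -0.52 and Usp9x at -0.95 under the 75th percentile. With either normexp correction Uchl1 was at -0.10, Usp47 and Herc3 at -0.05, Usp9x at -0.54, Hdac6 at -0.50 and Siah2 at -0.47. The count without overlap was 5 lower and 1 higher under the 75th percentile, where 36.7% of the probes well above background were lower and 34.0% higher. It was 1 lower and 1 higher under either normexp correction, beside 30.7% lower and 37.5% higher. Without surviving replicate 2 the Usp9x difference was -1.12, that of Hdac6 -0.71 and that of Herc3 -0.79, and without surviving replicate 1 those of Usp9x and Hdac6 were -2.34 and -2.23. Bap1 was at -0.26 without sham replicate 1.

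The comparison of dying with sham neurons asks what set stained neurons apart from those of an uninjured brain. By the array median, the listed probes were lower in dying samples, with differences from -2.12 (SE 0.54) for Usp47 to -4.20 (SE 0.75) for Siah2. The second Usp47 probe, not well above background on dying replicate 1, gave an uncertain -5.10 (SE 0.71). The listed probes of Usp9x, Bap1, Hdac6 and Siah2 were also not well above background on that array, so that the sizes of their differences are uncertain. Uchl1 gave -3.35 (SE 0.53) and Herc3 -3.75 (SE 0.70). These sizes moved with the processing, with Uchl1 at -2.34 under the median of probes above background and Usp47 at -0.94 under quantile normalization. Under normexp without spots of flagged background Siah2 was at -1.36, Usp9x at -1.36, Bap1 at -1.14, Hdac6 at -1.46 and Herc3 at -1.96. All 7 genes stayed negative under every scaling and background correction, although the median of all tested probes moved from -0.47 to 0.25 under the 75th percentile, to 0.21 with quantile normalization, to 0.34 with the series values and to 0.54 with the median of probes above background. The sizes rested in part on dying replicate 1, without which Bap1 stood at -1.85, Hdac6 at -1.76 and Usp9x at -2.13. Without dying replicate 2 Bap1 stood at -5.62 and Hdac6 at -5.43.

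The dying and sham arrays did not overlap for 7 of 7 listed probes. Of these, 3 were well above background on all 4 arrays, counting Usp47 by its first probe. Among 16184 probes well above background on all 4 arrays, 56.5% were lower without overlap and 18.0% higher. The balance of all probes depended on the scaling, with 39.8% lower and 32.2% higher under the 75th percentile and 32.7% lower and 38.7% higher under the median of probes above background, while all 7 listed probes were lower without overlap in both. By the 3 Usp9x probes of the other accession the difference from sham was -2.00 (SE 0.48), -1.73 (SE 0.50) and -1.88 (SE 0.45), so that for these probes dying and surviving samples both lay below sham. With quantile normalization these were -0.87, -0.57 and -0.66. In surviving samples the same 3 probes gave -1.57 (SE 0.48), -1.27 (SE 0.50) and -1.54 (SE 0.45), and -0.19, -0.23 and -0.45 with normexp over all spots. Both comparisons share the sham arrays, and the surviving and dying values are therefore set side by side without a count over the 2 comparisons.

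The comparison of sham with naïve rats asks what differed with the sham operation. The methods of the study describe a filter on ratios to sham, so the sham arrays may have had a part in the choice of the members, and the values are not independent of it. By the array median, all 7 genes had a positive difference, from 0.02 (SE 1.02) for Bap1 to 1.03 (SE 0.75) for Siah2, but none passed the test, with limma adjusted p between 0.851 and 0.996. Signs of Uchl1, Usp47, Bap1 and Hdac6 changed under some scalings or background corrections, and those of Usp9x, Siah2 and Herc3 did not. Siah2 was at 0.63 without naïve replicate 1 and at 0.37 under normexp without spots of flagged background. The signs of Bap1 and Hdac6 also changed without sham replicate 1, to -0.18 and -0.05, and that of Bap1 without naïve replicate 1, to -0.24. The median of all tested probes was 0.40 under the array median and 0.11 under the 75th percentile, and it lay between -0.04 and 0.58 over the scalings and background corrections.

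Sham and naïve arrays did not overlap for 3 of the 7 listed probes, those of Usp9x, Siah2 and Herc3, each higher in sham. Among 18018 probes well above background on all 4 arrays, 41.2% were higher in sham without overlap and 2.11% lower. With quantile normalization these shares were 24.9% and 16.6%, and with the median of probes above background 19.9% and 22.5%, each beside 3 members higher and 1 lower. With limma, 0 of 20739 probes passed the threshold (0% in either direction), and 1013 stood under 0.05 before adjustment (unadjusted p). When dying replicate 1 or dying replicate 2 was left out, which enter through the shared estimate of the spread, 43 passed.

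To place the members in their system, 239 other genes in 5 lists were read by the brightest probe of each, of which 176 were found by name on the array. The lists hold other deubiquitinases (50 of 74 found), HECT-type ligases (14 of 25), RING-type ligases and cullin subunits (75 of 93), ubiquitin genes with the activating and conjugating enzymes (28 of 37) and other histone deacetylases (9 of 10). Between surviving and dying neurons 0 of 146 tested genes passed with limma, and 26 stood under 0.05 by unadjusted p. Their median difference was 0.58, against 0.32 over 9174 named genes tested, and it stayed positive under each of the 6 other scalings and background corrections. Without dying replicate 2, 24 of 145 list genes passed, 21 higher and 3 lower in surviving samples, beside 5620 of 28210 probes, 3055 higher and 2565 lower.

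By list, the median difference between surviving and dying neurons was 0.48 for deubiquitinases, 0.997 for HECT-type ligases, 0.66 for RING-type ligases and cullin subunits and 0.42 for the ubiquitin, activating and conjugating genes. The other histone deacetylases, the relatives of Hdac6, had a median of -0.35, which turned positive under both normexp corrections (0.68 and 0.03) and without dying replicate 1 (0.16), and was -0.82 without dying replicate 2. The HECT-type ligases had 0.46 without dying replicate 1, and without dying replicate 2 the deubiquitinases had 0.74 and the RING-type list 1.01. With quantile normalization the ubiquitin, activating and conjugating genes had 0.19. None of these medians was tested.

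Trim9, a neuronal RING ligase, read 4.20 and 4.83 in surviving neurons and 2.44 and 2.72 in dying samples. Its difference was 1.94 (SE 0.50, adjusted p 0.125 with limma), and it was 1.79 without dying replicate 1. Rnf41 (2.64) and Keap1, a cullin adaptor that holds down the oxidative stress factor Nrf2 (2.24), were the other genes with the largest positive differences and no overlap, and they were 0.58 and 0.35 without dying replicate 1 and 4.70 and 4.12 without dying replicate 2. In the other direction, Ube2c, a conjugating enzyme of mitosis, read 0.84 and 0.57 in surviving neurons and 3.34 and 2.77 in dying samples, a difference of -2.35 (SE 0.77, adjusted p 0.156). Usp40 (-1.68) and Hdac10 (-1.20) followed, of which Usp40 was -1.01 without dying replicate 1 and Hdac10 -0.82 without dying replicate 2. Hdac10 turned to 0.21 only under the normexp correction over all spots, which failed on naïve replicate 1 and dying replicate 1. Over the scalings and background corrections Keap1 reached as little as 1.43, Ube2c -0.88 and Usp40 -0.30.

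**Figure D4:**
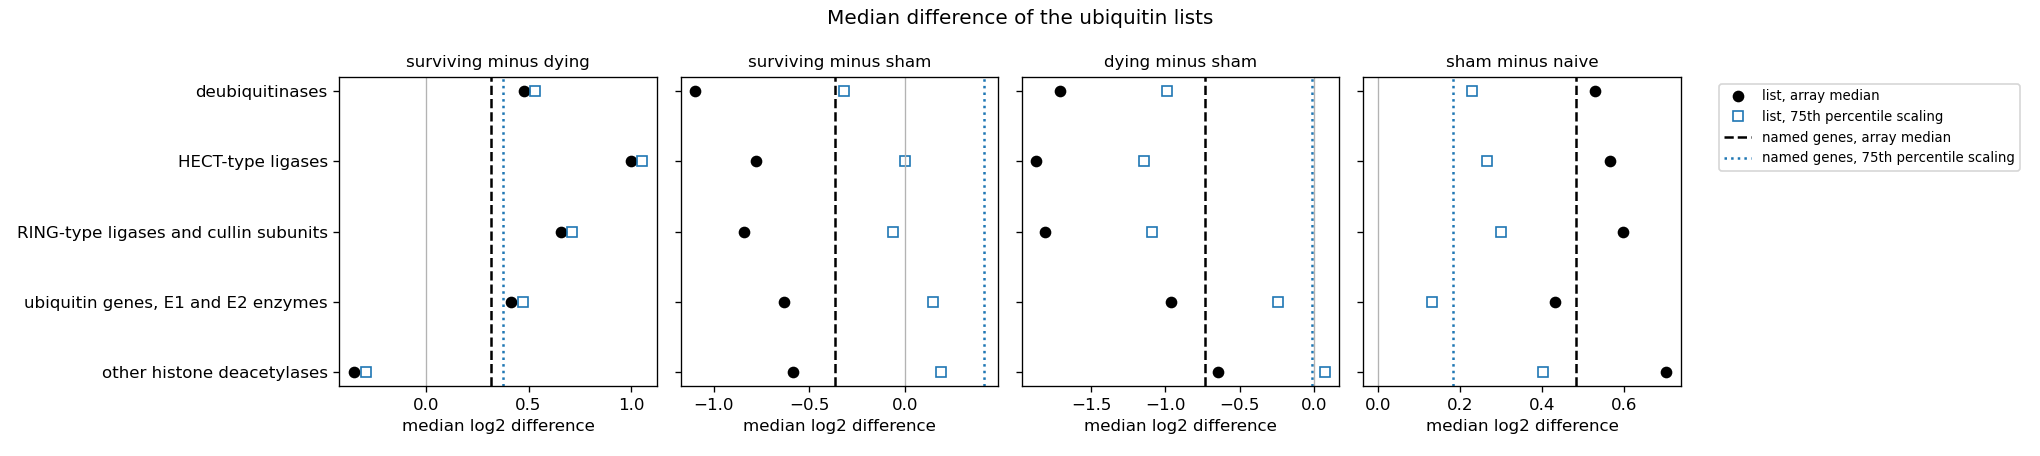
Median log2 difference (horizontal axis) of the tested genes of each ubiquitin list in 4 comparisons, with points for the array median and squares for scaling to the 75th percentile. The dashed and dotted lines give the median of all named genes tested under the same scalings, -0.37 and 0.41 for surviving minus sham.

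Against sham, 2 list genes rose and 30 fell in surviving neurons of 150 tested with limma, beside 7.52% of 9120 named genes higher and 8.02% lower. Over all 26910 probes tested, 6.47% were higher and 11.3% lower. Under the 75th percentile 13 list genes passed, 3 higher and 10 lower, beside 4143 probes higher and 1529 lower. Between 2 and 3 passed where a sham or surviving array was left out, beside 289 to 526 probes. The median of the lists was -0.83 under the array median, against -0.37 for named genes. It turned positive with both normexp corrections (0.10 each), the series values (0.05) and the median of probes above background (0.14). Deubiquitinases kept a negative median under every scaling, from -1.10 to -0.12.

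Rchy1, a RING ligase that acts on p53, was well above background on both sham arrays at 4.91 and 4.67 and on neither surviving array, and fell at least 108-fold under the array median (adjusted p 0.00068). Usp33, a deubiquitinase, read 4.09 and 3.91 in sham and -1.82 and -2.93 in surviving samples, a difference of -6.38 (SE 0.56, adjusted p 0.0011) whose size is uncertain, as surviving replicate 2 was not well above background. Usp25 (-3.70), Ddb1, the adaptor of Cul4 ligases (-3.20), and Usp1, a deubiquitinase of DNA repair (-2.83), were the next lower genes. Over the other scalings and background corrections the fitted differences of these 5 genes reached as little as -3.43 for Rchy1, -2.59 for Usp33, -2.10 for Usp25, -1.68 for Ddb1 and -1.74 for Usp1. Rnf40, a ligase of histone H2B, rose by 1.78 (SE 0.50, adjusted p 0.044), with sham replicate 2 not well above background. Usp22, a deubiquitinase of the SAGA complex, rose at least 1.05-fold under the array median, as no sham array was well above background. The fitted differences of Rnf40 and Usp22 reached as little as 1.27 and 0.33 over the other scalings and background corrections. All 7 calls were lost under the normexp correction over all spots, which failed on 2 arrays, and those of Rchy1 and Usp33 only there. The other 5 were also lost with 1 array left out. For Rnf40, Usp22, Ddb1 and Usp1 this was so without any of the sham or surviving arrays, for Usp1 also without either naïve array, and for Usp25 without either sham array or surviving replicate 1. Usp22 was also lost with normexp without spots of flagged background, Ddb1 with quantile normalization and the series values, and Rnf40 without a filter and with either replicate block. Usp1 was also lost under the 75th percentile, quantile normalization, the series values, the median of probes above background, without a filter and with the crossed replicate block.

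In dying neurons 5 list genes rose and 70 fell of 144 tested, beside 14.0% of 8525 named genes higher and 29.9% lower. Over all 25629 probes, 14.7% were higher and 28.6% lower. With quantile normalization 11 list genes were higher and 38 lower, beside 5260 and 4086 probes. The calls numbered 21 without sham replicate 1, beside 2984 probes, and 37 without sham replicate 2, beside 4982. The median of the lists was -1.71, against -0.73 for named genes, and it stayed negative under every scaling, between -1.71 and -0.67, as did the medians of deubiquitinases, HECT-type and RING-type ligases. The median of the other histone deacetylases was -0.65, with -0.27 without dying replicate 1 and -0.30 without dying replicate 2, and turned positive under the 75th percentile (0.07), quantile normalization (0.48), the series values (0.16) and the median of probes above background (0.36), the last of which also turned that of the ubiquitin, activating and conjugating genes to 0.05.

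Usp33 and Rchy1 were well above background on both sham arrays and on neither dying array, with signals at least 53.0-fold and 91.2-fold lower in dying samples under the array median. Mysm1, a deubiquitinase of histone H2A, was at least 10.6-fold lower by the same reading. Hace1, a HECT-type ligase, fell by 4.67 (SE 0.82, adjusted p 0.004) and Ddb1 fell by 4.58 (SE 0.67, adjusted p 0.003). Dying replicate 1 was not well above background for Hace1 and Ddb1, so that the sizes are uncertain. Ube2c rose by 3.70 (SE 0.76, adjusted p 0.007), with sham arrays at 0.24 and -1.54, of which replicate 2 was not well above background. March7, Usp40 and Usp22 were not well above background on either sham array. Under the array median they rose at least 1.97-fold, 4.14-fold and 1.03-fold, and Rnf40 rose by 1.65 (SE 0.50, adjusted p 0.029). The call of Ube2c was lost without sham replicate 2, that of Usp40 without sham replicate 1 or dying replicate 1, and those of March7 and Usp22 without either sham array or dying replicate 1. The fitted differences shrank over the other scalings and background corrections. They reached as little as -2.40 for Usp33, -3.07 for Rchy1, -1.09 for Mysm1, -1.44 for Hace1 and -2.09 for Ddb1. For the genes that rose they reached as little as 1.17 for Ube2c, 0.45 for March7, 0.42 for Usp40, 0.30 for Usp22 and 0.56 for Rnf40. The call of Rnf40 was lost without either sham array, either surviving array or dying replicate 1, while those of Usp33, Rchy1, Mysm1, Hace1 and Ddb1 held with each array left out. All 10 calls were lost under the normexp correction over all spots, those of March7, Usp40 and Usp22 also with normexp without spots of flagged background, and that of Rnf40 also without a filter and in a fit of the 4 arrays compared.

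Between sham and naïve rats 0 of 139 list genes passed with limma, and 8 stood under 0.05 by unadjusted p. The median was 0.56, against 0.48 for named genes, and stayed positive under every scaling. Ube2v2 (1.47), Ube2g1 (1.29) and Mysm1 (1.13) had the largest differences among genes without overlap, all higher in sham, with an adjusted p of 0.851 for each. Over the other scalings and background corrections they reached as little as 0.80, 0.41 and 0.34, and Mysm1 was at 0.61 without naïve replicate 2.

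The nearest relatives of the members were read by the same measure. Uchl5, the hydrolase of the proteasome, read 6.14 and 5.57 in surviving neurons and 5.73 and 5.35 in dying samples, which overlapped, with a difference of 0.32 (SE 0.47, adjusted p 0.737). Its difference between dying and sham samples was -1.77 (SE 0.47, adjusted p 0.018), which did not pass without either sham array, with quantile normalization, with either normexp correction, with the series values or with the median of probes above background. Uchl3 was found by no name. Siah1a, the relative of Siah2, read 0.92 and 1.11 in surviving neurons and -0.02 and -0.46 in dying samples without overlap, a difference of 1.26 (SE 0.46, adjusted p 0.183).

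Siah1a had a difference of -2.65 between dying and sham samples (SE 0.46, adjusted p 0.004), which passed with each array left out and did not pass under normexp over all spots, and it reached as little as -0.96 over the scalings and background corrections. Herc2 read 4.64 and 4.10 in surviving neurons and 2.04 and 3.53 in dying samples, a difference of 1.58 (SE 0.62, adjusted p 0.201) that was 0.84 without dying replicate 1. Herc1 read 6.77 and 5.89 in surviving neurons and 4.51 and 6.06 in dying samples, with overlap and a difference of 1.04 (SE 0.64) that was 0.27 without dying replicate 1. Against sham, dying samples differed by -2.06 for Herc2 (adjusted p 0.027) and by -1.87 for Herc1 (adjusted p 0.043). Neither passed without either sham array or without dying replicate 1, where they were -1.32 and -1.09, and Herc1 also did not pass without either surviving array. Neither passed under any of the 6 other scalings and background corrections or in a fit of the 4 arrays compared, and Herc1 also did not pass without a filter or with the replicate block. Herc4 was not well above background on any array.

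Of the genes that encode ubiquitin, Rps27a gave a difference of -0.34 between surviving and dying samples (SE 0.46, adjusted p 0.710), which was -0.02 without dying replicate 1 and -0.66 without dying replicate 2, and its sign turned only under the normexp correction over all spots, which failed on dying replicate 1 and naïve replicate 1. Ubb read 12.64 and 12.71 in surviving samples and 12.39 on dying replicate 2, and dying replicate 1 had no value because its spots were marked as non-uniform. Neither Rps27a nor Ubb passed the test in any of the 4 comparisons under the array median.

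Over the 8 arrays, the listed probes of the 7 genes ran closely together, with Pearson's r from 0.878 for Usp47 and Bap1 to 0.997 for Siah2 and Herc3. Usp9x and Hdac6 gave r = 0.994. These correlations describe 8 arrays in 4 groups and share the group differences and the low values of dying replicate 1, and no p is given. Among 6533 probes of named genes well above background on all 8 arrays, the patterns most like Uchl1 were those of Psmb7, a proteasome subunit (r = 0.999), Nkiras1 (0.998) and Gpsn2 (0.997).

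For Usp9x by the listed probe they were Kpna3, an importin (r = 0.999), H2afx and Ppap2a, and Kpna3 was also first for Hdac6 (0.994), before Elac2 and Ppp1r7. For Usp47 they were Zfp637, Spg3a and Drb1 (each 0.996), and for Bap1 they included Bok and Polr3d (0.993 and 0.990). For Siah2 they were Ncoa5 (0.997), Herc3 and Slc27a4, and for Herc3 Eftud2 (0.996), Mas1 and Ppat. The measure was taken over all 8 arrays, and shared groups raise it for many genes.

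Markers of neurons and of other cells differed between the groups, and their part in the results was not tested. The summed signal of the 4 general neuronal markers found, led by Eno2, was 3359 and 3420 times the array median in surviving, 1535 and 1878 in dying and 10258 and 8478 in sham samples, with all 4 well above background on every array. The 6 pyramidal markers found, led by Nrgn, summed to 5304 and 6518 in surviving, 3336 and 2911 in dying and 11915 and 10482 in sham samples, and Grin2b was not above background on the 4 uninjured arrays. Nrgn alone gave 5254 of the 5304 on surviving replicate 1, and signals of different probes do not rank amounts of RNA. Both neuronal sums were thus lower in dying than in surviving samples, but each was mostly the signal of 1 gene. Nrgn gave 5254 and 5515 in surviving and 2932 and 2889 in dying samples. Eno2 gave 2723 and 3174 in surviving and 1456 and 1598 in dying samples. The sums therefore show the direction of Nrgn and Eno2 and not that of the other neuronal markers. The means of the listed probes of the 7 genes were also lower, although the arrays overlapped for Usp9x and Hdac6.

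Sums of the 10 microglial and macrophage markers ran the other way, with 458 and 485 in surviving, 2388 and 1057 in dying and 270 and 258 in sham samples. Their highest signal was that of C1qb in dying samples, at 894 and 437, and that of Lgals3 in surviving samples, while Ptprc was not above background on 7 of the 8 arrays. The 7 interneuron markers summed to 508 and 454 in surviving neurons and 1977 and 491 in dying samples, led by Npy. The 7 astrocyte markers, led by Slc1a3, summed to 590 and 660 in surviving, 1223 and 618 in dying and 1416 and 987 in sham samples.

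The 5 endothelial markers summed to 55.4 and 50.1 in surviving neurons and 248 and 122 in dying samples, with Vwf highest and Tek not above background on any array. The 7 oligodendrocyte markers summed to 1854 and 1764 in sham, 1252 and 1117 in naïve rats, 168 and 199 in surviving neurons and 236 and 185 in dying samples, so that the controls differed from both injured groups. Plp gave the highest signal of them in sham and naïve samples. In naïve samples, the general neuronal, pyramidal, interneuron, astrocyte, microglial and endothelial sums were 5091 and 7239.5, 6153 and 9024, 510 and 776, 790 and 1036, 122 and 256, and 43.1 and 74.6, in that order.

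**Figure D5:**
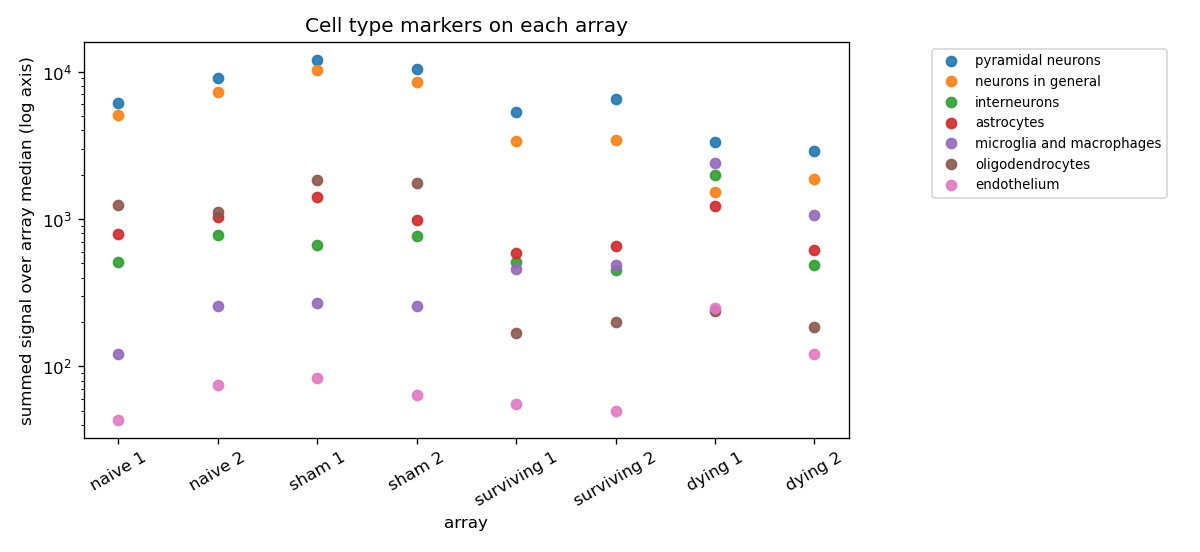
Summed signal over the array median (vertical log axis) of the markers of 7 cell types on each of the 8 arrays. Microglial and macrophage markers sum to 2388 and 1057 on the dying arrays and to 458 and 485 on the surviving arrays, while general neuronal markers sum to 1535 and 1878 on the dying arrays.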

How the data were processed

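The authors deposited, per the file headers, processed intensity values made with Agilent Feature Extraction 9.1.3.1, background subtracted and not normalized between arrays, with the mean and local background intensity of each spot, other marks of 0 or 1 per spot for spots well above background or non-uniform, and a series table of signal values divided by 1 constant per array. Spots marked non-uniform were dropped, the remaining spots averaged by probe, and each array divided by its median. Values under 0.01 were set to 0.01 and log2 taken. A probe counted as well above background where at least as many of its spots were as were not; this handling of ties replaced a stricter rule after comparison with earlier counts from these data.

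The 4 groups were fitted together over the 8 arrays by limma 3.58.1 in R 4.3.3. Tested probes had both arrays of at least 1 compared group well above background, with Benjamini-Hochberg adjustment and a threshold of 0.05. Members and lists were chosen with earlier results of these data known. For each comparison the text names, of the list genes, up to 5 in each direction past the threshold with the largest change or, where none passed, up to 3 without overlap, and for each member up to 3 of the genes most alike by Pearson's r. Folds are lower bounds, set by the lowest signal well above background on each array, where no array of a group was. Other scalings (75th percentile, quantile, series values), normexp with an offset of 50, floors of 0.1, filters, all spots, every probe, a replicate block, fits of 4 arrays and leaving out each array were run. Alternatives chosen after seeing the data were the median of probes above background, normexp without spots of flagged background, a stricter rule for ties and crossed replicate numbers.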

Additional observations from a re-analysis of the deposited data

How the results depend on the processing

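The members were chosen by the difference between surviving and dying samples, so its sign, the same for 7 of 7 under the 22 alternatives, shows no stability. Filters, replicate blocks, the fit of the 4 arrays, the rule for ties and leaving out arrays of other groups do not change a difference between group means by construction. The higher floor and the use of all spots also left the differences of the listed probes unchanged. Each comparison had 161 values of single members, many of them from settings that could not move a value. No share of 161 is therefore read as stability. Moves by more than the spread between replicates numbered 24 for dying minus sham, 41 for surviving minus sham and 6 for surviving minus dying. That spread was wide. Leaving out 1 of the 2 arrays of a group moves a difference by an amount that the same spread sets. No such move could exceed the spread, and none of them is read as stability. Hdac6 moved from 2.12 to 0.29 without dying replicate 1, a loss of most of its difference. Signal near background limits the dying samples, where 4 listed probes were not well above background on 1 array. Normexp over all spots failed on naïve replicate 1 and dying replicate 1, where spots of flagged local background reached 64123 and 20448 and the upper decile of the signals was 1.38 and 1.34. Its counts of 0 are therefore not read as a result. Between surviving and dying neurons, and between sham and naïve rats, 0 probes passed under the array median as well. The cause of changes of count was not tested, except that fits with fewer arrays or probes differ by construction.

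Between surviving and dying neurons, 0 probes passed under the array median, 2 with the series values and 0 to 5620 with 1 array left out, and list genes numbered 0 to 24 with 1 array left out. For surviving minus sham, the 4791 probes called (36.3% higher) became 0 with normexp, 2566 (57.3% higher) without the flagged spots, 2876 (6.26% higher) with the filter on all 4 arrays, 12184 in a fit of the 4 arrays and 289 to 8081 with 1 array left out. Scaling turned the balance, with 4143 higher and 1529 lower under the 75th percentile, 2241 and 1537 with quantile normalization, 4410 and 1443 with the series values and 5096 and 1293 with the median of probes above background. The 32 list genes became 13 under the 75th percentile, 11 with quantile normalization, 0 with normexp, 14 without the flagged spots, 13 with the series values, 14 with the median of probes above background, 18 without a filter, 16 with the replicate block and 16 with its dying numbers crossed, 58 in a fit of the 4 arrays and 2 to 48 with 1 array left out. The labels do not pair rats by replicate number, and replicate differences of surviving and dying arrays had r = -0.19 over 15254 probes, so both pairings were run. Members with a positive difference numbered 1 under the 75th percentile, quantile normalization, either normexp, the series values and the median of probes above background.

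For dying minus sham, the 11102 probes called (33.9% higher) became 0 with normexp, 7241 without the flagged spots, 7116 (15.3% higher) with the filter on all 4 arrays and 2984 to 13097 with 1 array left out. Higher and lower probes numbered 6985 and 4817 under the 75th percentile, 5260 and 4086 with quantile normalization, 7361 and 4326 with the series values and 8361 and 3860 with the median of probes above background. The 75 list genes became 49 with quantile normalization, 0 with normexp and 21 to 90 with 1 array left out.

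For sham minus naïve, 0 probes became 1 with quantile normalization, 262 in a fit of the 4 arrays and 0 to 43 with 1 array left out, and list genes became 2 in a fit of the 4 arrays. Members with a positive difference numbered 4 with quantile normalization, 3 with normexp without the flagged spots, 4 with the series values and 4 with the median of probes above background. In that order Uchl1 was -0.073, -0.14, -0.0027 and -0.082, Bap1 was -0.28, -0.26, -0.35 and -0.43, and Hdac6 was -0.11, -0.14, -0.11 and -0.19. Under the 75th percentile Bap1 was -0.28 and Hdac6 -0.046, and with normexp without the flagged spots Usp47 was -0.019. With 1 array left out Bap1 ranged from -0.24 to 0.27 and Hdac6 from -0.046 to 0.55.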
